A study of Mus musculus with 42 samples.

Results

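The genes described here encode the enzymes of glycolysis, the pentose phosphate pathway and glycogen turnover, the kinases that switch off pyruvate dehydrogenase, and the hypoxia-inducible factor HIF-1α with a few of its known targets. They were taken by symbol from a list of 45 genes, a rule that uses no measured value. The count table measured 44 of the 45 among 11160 genes, and the hydroxylase Egln3 was not analysed here. All 44 were tested. RNA-seq was done on mouse bone marrow-derived macrophages (BMDM), cells grown from marrow with the growth factor M-CSF, then replated for the experiment. Wild-type (WT) cells and MS4A4A knockout (KO) cells were left untreated, given vehicle for 2, 8 or 24 h, or given 1 µM dexamethasone (Dex), a synthetic glucocorticoid, for the same times. MS4A4A is a membrane protein with several membrane-spanning segments that macrophages carry. This gave 14 groups of 3 libraries, 42 in all, and every group shared the same growth in M-CSF. The untreated groups are labelled as a baseline at 0 h. The labels do not say which part of the gene was removed, whether the 3 libraries of a group came from separate animals or cultures, or the donors' strain, sex and age. The p-values therefore measure the spread between these libraries, which may be technical.

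As background, glycolysis splits glucose into pyruvate, and its pace is set mainly where hexokinases phosphorylate glucose and where phosphofructokinases commit the sugar to breakdown. The bifunctional PFKFB enzymes make and remove fructose 2,6-bisphosphate, the strongest activator of phosphofructokinase. Pyruvate dehydrogenase kinases (Pdk) shut the entry of pyruvate into mitochondria, and Pdk4 is a textbook glucocorticoid-induced gene in muscle and other tissues. HIF-1α, which prolyl hydroxylases mark for destruction when oxygen is present, raises many glycolytic genes, and macrophages activated by bacterial products rely on that programme. The pentose phosphate pathway makes NADPH and ribose, and in macrophages its NADPH feeds the oxidative burst.

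The stretches of DNA just before the transcription starts were read for the HIF core motif, since HIF-1α and its targets are among the genes and their members moved in different directions with Dex. For 43 of the 44 genes, RefSeq for GRCm38.p6 gave the 250 bases before the start, and the most upstream start was taken where a gene had several. The letters searched on both strands were ACGTG and GCGTG for the HIF core, CACGTG for the E-box, which holds ACGTG on each strand and so counts as 2 overlapping cores, and, for the glucocorticoid receptor, GNACA and TGTNC with any 3 bases between them. At least 1 HIF core was present before 34 of the 43 genes (79.1%), against 58% of 8592 genes of the count table and 38.6% of all 27026 genes in the promoter table. The E-box was present before 5 (11.6%, against 8.68% of the count table's genes), and the glucocorticoid receptor letters before none (against 0.175%). The genes whose windows are printed are 4 of those with the largest Dex changes, and Ldha and Bnip3, which each held 5 HIF cores and were chosen after these counts were seen. Stretches lying in exons of GENCODE vM21 are left out. Capitals mark the HIF core, which reads CACGT or CACGC where it lies on the other strand, and all windows are read on the gene's own strand. On the minus strand lie Pfkfb3 (chr2:11554078-11554179, whose 1 core lies in the part left out, 60 bases before the start), Pfkl (chr10:78009808-78010004, core 99 bases before the start), Pdk4 (chr6:5496310-5496528, core 71 bases before the start), Vegfa (chr17:46032378-46032627, no core) and Bnip3 (chr7:138909520-138909756). Ldha (chr7:46845554-46845803) lies on the plus strand.
Pfkfb3: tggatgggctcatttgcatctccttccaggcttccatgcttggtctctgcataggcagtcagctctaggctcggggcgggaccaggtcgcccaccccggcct
Pfkl: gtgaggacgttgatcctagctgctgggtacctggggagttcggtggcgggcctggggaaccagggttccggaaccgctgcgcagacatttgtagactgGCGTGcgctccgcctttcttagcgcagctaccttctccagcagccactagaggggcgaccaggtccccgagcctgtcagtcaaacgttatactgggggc
Pdk4: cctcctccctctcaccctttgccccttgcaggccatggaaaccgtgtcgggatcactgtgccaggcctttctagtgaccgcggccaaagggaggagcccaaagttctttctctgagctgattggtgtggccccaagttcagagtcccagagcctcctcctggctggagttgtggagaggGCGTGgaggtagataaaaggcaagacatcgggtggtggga
Vegfa: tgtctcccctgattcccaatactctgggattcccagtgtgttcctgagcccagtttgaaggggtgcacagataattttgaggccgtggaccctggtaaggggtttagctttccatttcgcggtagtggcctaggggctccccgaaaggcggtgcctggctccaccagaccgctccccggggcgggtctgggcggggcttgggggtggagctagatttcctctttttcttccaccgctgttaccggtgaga
Ldha: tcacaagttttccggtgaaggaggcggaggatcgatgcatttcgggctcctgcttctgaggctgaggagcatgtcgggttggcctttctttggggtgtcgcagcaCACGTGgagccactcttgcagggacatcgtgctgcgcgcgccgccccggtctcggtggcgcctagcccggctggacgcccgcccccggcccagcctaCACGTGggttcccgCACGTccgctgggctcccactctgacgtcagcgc
Bnip3: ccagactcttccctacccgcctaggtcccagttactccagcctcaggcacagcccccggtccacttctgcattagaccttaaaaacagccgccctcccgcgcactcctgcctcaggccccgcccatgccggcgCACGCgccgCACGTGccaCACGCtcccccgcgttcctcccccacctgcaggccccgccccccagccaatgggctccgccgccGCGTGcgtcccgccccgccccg

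Library totals ran from 10140245 to 33528398 counts, with a median of 27998713.5, and levels are given as CPM, counts scaled to the library's total. Ms4a4a itself stood at 89.1 ± 6.36 CPM in untreated WT and 46.7 ± 2.69 in untreated KO (SD, n = 3), so its transcript was lower in KO but still measured. The glucocorticoid targets Fkbp5 and Tsc22d3 rose with Dex at every time. The library labelled KO vehicle 24 h replicate 2 stood apart, with Fkbp5 at 69.9 CPM against 12.4 to 18.97 in the other 24 h vehicle libraries. Without it, 29 members were called for Dex at 24 h, the same 29 as with it, beside 5802 of 11160 genes (5984 with it). The 9 macrophage markers summed to 18677 to 42679 CPM over the libraries. The 4 measured of 7 stromal markers summed to 4.95 to 13.98 CPM with vehicle and 8.98 to 41.8 with Dex at 24 h, and their part in the 24 h results was not tested. The 1 measured of 5 T cell markers, Cd4, stood at 7.74 to 14.3 CPM with vehicle and 1.68 to 6.23 with Dex at 24 h, and the 1 of 4 B cell markers, Cd79b, at 1.59 to 2.13 and 0.482 to 0.771. Dendritic cell markers, 2 of 4 measured, summed to 0.32 to 1.27 CPM with vehicle and 4.53 to 6.26 with Dex at 8 h, and to 0.601 to 1.10 and 2.17 to 3.94 at 24 h. Osteoclast markers, 3 of 5 measured, summed to 24.9 to 34.4 and 32.04 to 46.9 at 8 h and to 16.4 to 31.5 and 23.7 to 45.4 at 24 h, ranges that overlap. Neutrophil markers, 5 of 8 measured, summed to 12.6 to 104 over all libraries. In every group replicate 3 had the highest neutrophil sum, such as 49.6, 28.7 and 104 CPM in untreated WT (replicates 1, 2 and 3). Replicate 2 had the highest stromal sum in every group, such as 8.98, 41.8 and 21.4 CPM in WT with Dex at 24 h. The part of these markers in the results was not tested either. In such bulk samples fewer cells of a type and less RNA per cell cannot be told apart.

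With Dex the members split into a rising and a falling set, with more of them called at 8 and 24 h than at 2 h. At 2 h 4 rose and 3 fell of 44 by edgeR's quasi-likelihood test at a Benjamini-Hochberg adjusted p under 0.05, or 15.9% against 14.5% of all genes (8.14% rose and 6.41% fell). At 8 h 14 rose and 15 fell, or 65.9% against 52.2% of all genes (27.5% rose and 24.7% fell). At 24 h 13 rose and 16 fell, again 65.9% against 53.6% (26.8% in each direction). The median log2 change over the members was -0.01, -0.06 and -0.05 at 2, 8 and 24 h, beside -0.0047, 0.01 and 0.01 over all genes. Over the 3 times, 36 members were called at least once. Pfkl and Pfkfb3 rose at all 3 times and Vegfa fell at all 3, while Pgam1, Pdk1 and Mxi1 rose at one time and fell at another. The 8 called at none, in the fit without a replicate block, were Pfkm, Pfkfb4, Pdha1, Egln1, Pgm2, Pgd, Pgls and Rpia. Set library by library at 2 h, Pfkl and Pfkfb3 lay wholly above their vehicle range and Vegfa wholly below it, over 6 libraries against 6. By the same measure 11 members lay above and 9 below at 8 h, and 8 above and 12 below at 24 h. The matching share of all genes is not given here, so these counts do not set the members apart from other genes. The members together took 0.896% to 0.946% of a library's counts with vehicle at 24 h and 0.729% to 0.828% with Dex at 24 h, ranges that do not overlap.

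**Figure D1:**
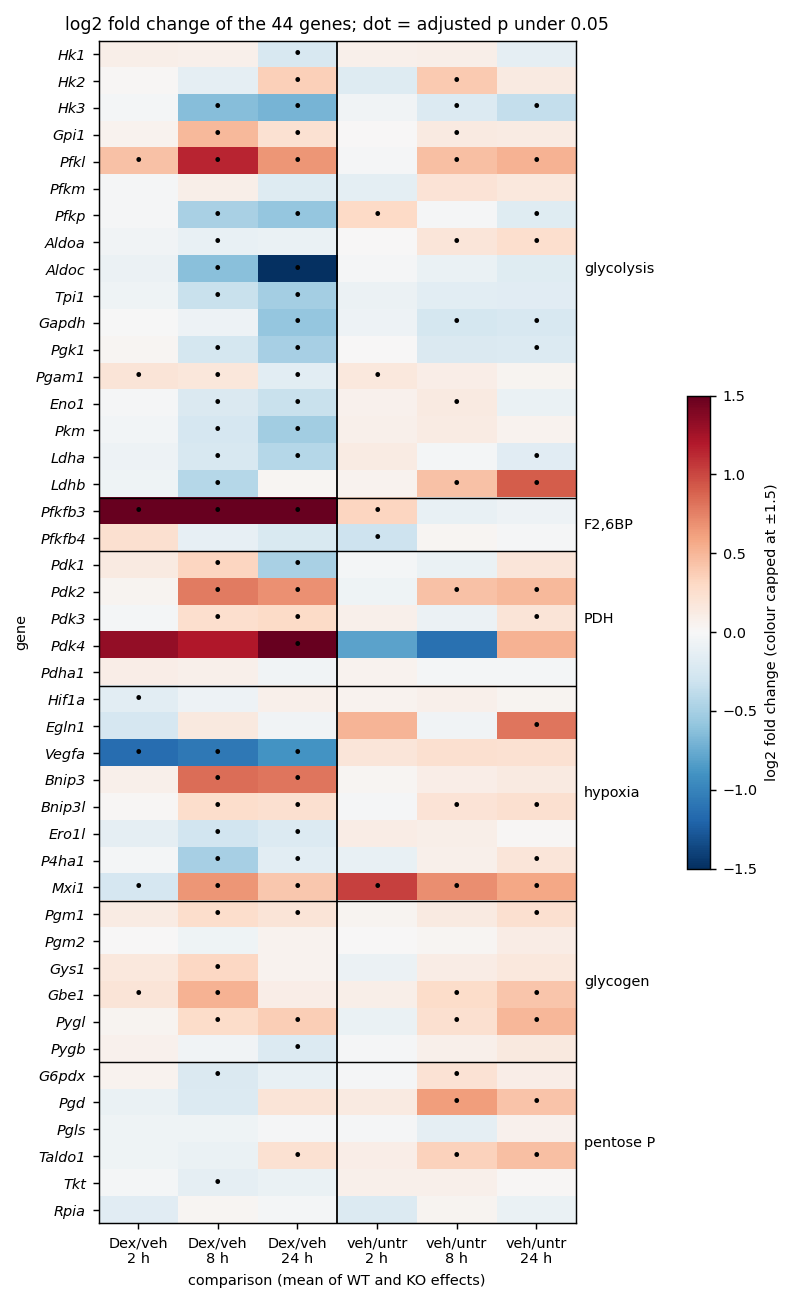
Log2 change of each of the 44 members (rows, grouped by role) for Dex against vehicle and for vehicle against untreated at 2, 8 and 24 h (columns), with colour capped at 1.5 in either direction and a dot where the adjusted p was under 0.05. Few members carry a dot at 2 h, 29 carry one for Dex at 8 h and 29 at 24 h, and most glycolytic enzymes are on the falling side at 24 h.

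The enzyme that makes fructose 2,6-bisphosphate changed more than any other member at 8 h. Pfkfb3 (chr2:11471433-11554077 on the minus strand of GRCm38, protein coding in GENCODE vM21) rose 3.06-fold at 2 h, 6.28-fold at 8 h and 3.66-fold at 24 h. Untreated libraries held 34.8, 33.3 and 25.4 CPM in WT and 28.4, 35.3 and 32.6 in KO (replicates 1, 2 and 3 in that order here and in every list of values). At 2 h vehicle libraries held 29.8, 39.96 and 40.9 CPM in WT and 36.5, 44.8 and 46.1 in KO. The matching Dex libraries held 131, 122 and 118 CPM in WT and 117, 108 and 132 in KO, so the lowest Dex library lay well above the highest vehicle library. At 8 h the vehicle values were 24.05, 29.9 and 29.8 CPM in WT and 25.7, 33.6 and 34.1 in KO. With Dex they were 186, 181 and 180.2 CPM in WT and 204, 173 and 185 in KO. Every one of the 6 Dex libraries at 8 h was above every Dex library at 2 or 24 h. At 24 h vehicle gave 30.6, 27.9 and 27.7 CPM in WT and 29.5, 29.8 and 35.2 in KO. Dex gave 140.2, 109 and 125 CPM in WT and 99.2, 83.6 and 108 in KO, and the groups again did not overlap. The log2 changes were 1.61 ± 0.094 (SE, adjusted p = 1.14e-15), 2.65 ± 0.10 (adjusted p = 1.46e-21) and 1.87 ± 0.10 (adjusted p = 1.68e-17) by edgeR's quasi-likelihood test with Benjamini-Hochberg adjustment, which gives every adjusted p below. Within genotypes the log2 change at 24 h was 2.12 in WT and 1.62 in KO. Pfkfb4, which belongs to the same family, was not called at any time without a replicate block, with log2 changes of 0.24, -0.12 and -0.22.

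**Figure D2:**
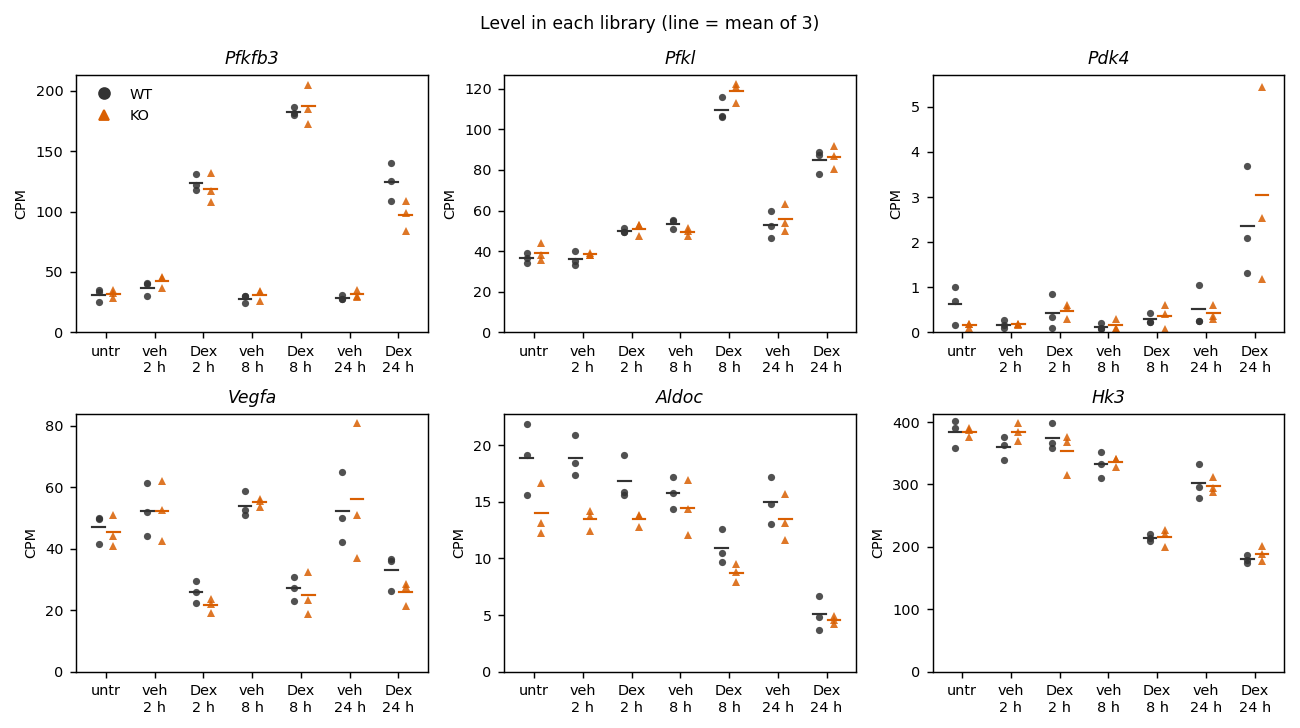
CPM of Pfkfb3, Pfkl, Pdk4, Vegfa, Aldoc and Hk3 in each of the 42 libraries (vertical axis) by condition (horizontal axis), with WT as circles, KO as triangles and a line at the mean of 3. The Dex libraries of Pfkfb3 lie above all vehicle libraries at each time, and those of Aldoc and Hk3 lie below them at 24 h.

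At 8 and 24 h most of the called glycolytic transcripts fell, while Pfkl and Gpi1 rose. Of the 17 glycolytic members, 2 rose and none fell at 2 h, 3 rose and 10 fell at 8 h, and 3 rose and 11 fell at 24 h. The shares called were 11.8%, 76.5% and 82.4%, against 14.5%, 52.2% and 53.6% of all genes. Their medians were -0.02, -0.22 and -0.33 on the log2 scale. Among the hexokinases, which trap glucose in the cell, Hk3 (chr13:55005985-55021385, minus strand) was the most abundant per length and fell. Its vehicle libraries at 8 h held 353, 310.4 and 333 CPM in WT and 341, 328 and 341 in KO. Dex libraries at 8 h held 220.1, 214 and 209 CPM in WT and 199.6, 220.0 and 228 in KO, all below the lowest vehicle value. The log2 change was -0.64 ± 0.049 (adjusted p = 4.84e-13). At 24 h vehicle gave 333, 278 and 295 CPM in WT and 295, 289 and 311 in KO. Dex gave 175, 188 and 179.7 CPM in WT and 188, 178 and 201 in KO, again with no overlap, and the log2 change was -0.70 ± 0.049 (adjusted p = 4.87e-14). At 2 h, with 339.7, 373 and 398 CPM with vehicle (lowest, median and highest of 6) and 316, 367 and 398 with Dex, the log2 change was -0.032 ± 0.049 (adjusted p = 0.833).

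Hk1, the broadly expressed hexokinase, held 77.3, 78.4 and 86.1 CPM in WT and 81.7, 83.9 and 84.1 in KO with vehicle at 24 h. With Dex it held 64.2, 72.2 and 79.1 CPM in WT and 65.04, 65.7 and 69.4 in KO, of which 1 reached into the vehicle range, and its log2 change was -0.24 ± 0.059 (adjusted p = 0.000807). It was not called at 2 h (0.09) or 8 h (0.079). Hk2, the hexokinase that HIF-1α is known to raise, held 19.1, 23.5 and 37.4 CPM in WT and 18.7, 36.2 and 32.9 in KO with vehicle at 24 h. Its Dex libraries held 29.1, 35.8 and 41.2 CPM in WT and 36.3, 34.2 and 38.04 in KO, and the ranges overlapped. The rise at 24 h, 0.36 ± 0.12 (adjusted p = 0.0152), was kept in 8 of 12 fits that each left out 1 of the compared libraries, in which it ran from 0.23 to 0.52. Leaving out any of WT Dex replicate 3, WT vehicle replicates 1 and 2, and KO vehicle replicate 1, all of 24 h, ended the call. Counted per kilobase of exon, Hk3 made up 84.3% ± 1.22 of hexokinase transcript in WT with vehicle at 8 h and 77.96% ± 0.281 with Dex (SD, n = 3). In KO these shares were 84.4% ± 0.125 and 76.96% ± 1.47. The Hk1 share rose over the same step from 10.3% ± 0.686 to 15.4% ± 0.42 in WT. At 24 h the Hk2 share went from 4.69% ± 1.70 to 9.31% ± 1.24 in WT and from 5.10% ± 1.57 to 9.29% ± 0.0775 in KO.

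The phosphofructokinases Pfkl and Pfkp moved in opposite directions. Pfkl, the liver-type subunit (chr10:77986947-78010083, minus strand), rose 2.21-fold at 8 h, and Pfkp, the platelet-type subunit, fell 1.40-fold. With vehicle at 8 h Pfkl held 54.7, 50.8 and 55.3 CPM in WT and 51.5, 50.01 and 47.4 in KO. With Dex it held 106, 116 and 107 CPM in WT and 121, 123 and 113 in KO, so that each Dex library was far above the highest vehicle library. Its log2 change was 1.15 ± 0.062 (adjusted p = 5.4e-17). At 2 h it held 33.2, 40.1 and 35.3 CPM in WT and 38.2, 38.2 and 39.04 in KO with vehicle. The Dex libraries held 51.3, 49.7 and 49.4 CPM in WT and 47.6, 52.7 and 53.1 in KO, and the change was 0.44 ± 0.062 (adjusted p = 1.26e-06). At 24 h vehicle gave 52.2, 46.3 and 59.8 CPM in WT and 49.8, 63.1 and 53.9 in KO. Dex gave 78.1, 88.6 and 87.5 CPM in WT and 80.5, 86.8 and 91.7 in KO, and the change was 0.66 ± 0.062 (adjusted p = 5.68e-11), with no overlap at either time. Pfkp held 145, 157 and 165 CPM with vehicle at 8 h (lowest, median and highest of 6) and 105, 112 and 118 with Dex, a log2 change of -0.48 ± 0.058 (adjusted p = 1.04e-08). It fell at 24 h too, with a log2 change of -0.58 ± 0.058 (adjusted p = 1.76e-10). Pfkm, the muscle-type subunit, was the scarcest of the family and was called at no time.

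Counted per kilobase, Pfkl made up 37.6% ± 0.452 of phosphofructokinase transcript in WT with vehicle at 8 h and 60.3% ± 2.46 with Dex (SD, n = 3). In KO the share went from 34.2% ± 0.134 to 63.00% ± 0.939. The Pfkp share fell over the same step from 53.1% ± 1.11 to 31.00% ± 2.18 in WT and from 54.9% ± 1.64 to 29.1% ± 0.633 in KO. At 24 h Pfkl still made up 59.1% ± 2.26 in WT and 59.9% ± 1.32 in KO with Dex. The Pfkl shares with vehicle at 8 and 24 h were also above those of untreated cells, 28.8% ± 0.922 in WT and 30.1% ± 2.55 in KO. By group mean, Pfkp was thus the leading subunit per length in untreated and vehicle groups and with Dex at 2 h. With Dex at 8 and 24 h it was Pfkl. In KO with vehicle at 24 h the library ranges crossed, 37.3% to 45.9% for Pfkl and 43.4% to 51.9% for Pfkp. The order rests on merged exon lengths of 13401 bases for Pfkp and 6675 for Pfkl. Mean CPM without length was 113 for Pfkp and 109.6 for Pfkl with Dex at 8 h in WT, and 110.1 and 119 in KO. At 24 h it was 93.6 and 84.7 in WT, and 90.8 and 86.3 in KO.

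**Figure D3:**
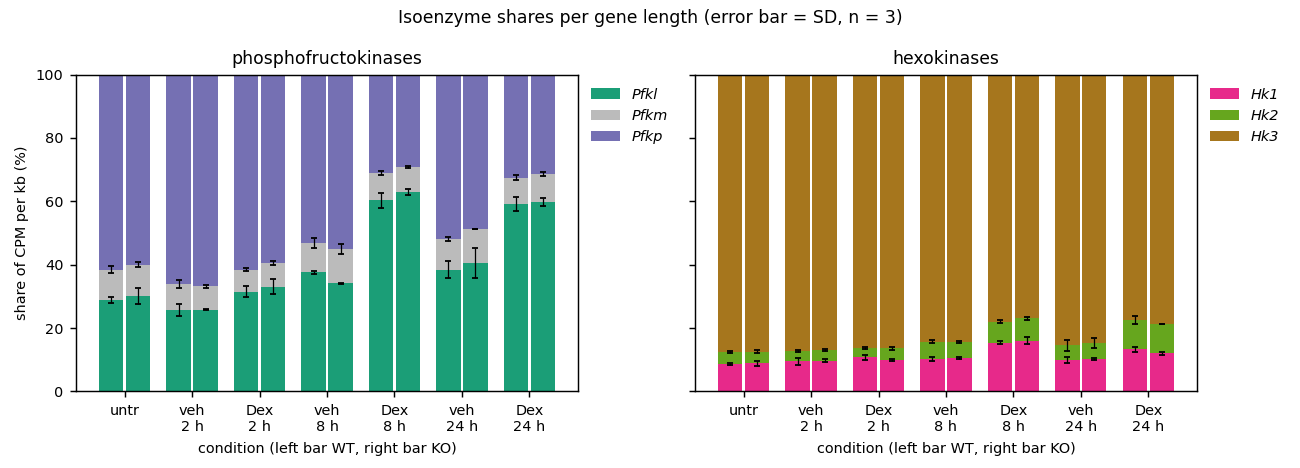
Stacked shares in percent of CPM per kilobase of exon (vertical axis) for the phosphofructokinases and the hexokinases in each condition (horizontal axis, left bar WT and right bar KO), with error bars showing the SD (n = 3) of the share of each of the lower segments. Pfkl passes Pfkp with Dex at 8 and 24 h, and Hk3 keeps the largest hexokinase share in every group.

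Between the phosphofructokinase step and pyruvate most enzymes fell, and more so at 24 h. The sharpest was Aldoc (chr11:78322968-78327781, plus strand), the brain-type aldolase, which splits the sugar into triose phosphates. With vehicle at 24 h Aldoc held 14.8, 13.1 and 17.2 CPM in WT and 11.6, 13.1 and 15.7 in KO. In the Dex libraries it was at 6.64, 3.69 and 4.85 CPM in WT and 4.92, 4.22 and 4.56 in KO, and every Dex library was below every vehicle library. The log2 change was -1.56 ± 0.12 (adjusted p = 3.39e-13), a 2.96-fold fall. At 8 h vehicle gave 15.8, 14.3 and 17.2 CPM in WT and 12.1, 16.9 and 14.4 in KO. Dex gave 10.5, 9.67 and 12.6 CPM in WT and 8.77, 9.50 and 7.92 in KO, which overlapped in part, and the change was -0.63 ± 0.11 (adjusted p = 1.35e-05). At 2 h the change was -0.084 ± 0.11 (adjusted p = 0.789). Aldoa, the widely expressed aldolase, changed by a small amount, with -0.11 ± 0.044 (adjusted p = 0.0374) at 8 h. That call was kept in 8 of 12 fits leaving out 1 library, over which it ran from -0.12 to -0.10, and was lost without KO Dex 8 h replicate 3, KO vehicle 8 h replicate 1 or 2, or WT vehicle 8 h replicate 1.

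Gpi1, which converts glucose 6-phosphate to fructose 6-phosphate, was the one upper enzyme beside Pfkl to rise at both later times, by 0.48 at 8 h (adjusted p = 1.38e-10) and 0.23 at 24 h on the log2 scale. At 24 h the falls were -0.51 for Tpi1, -0.58 for Gapdh, -0.50 for Pgk1, -0.33 for Eno1 and -0.52 for Pkm, the enzymes from triose phosphate to pyruvate in order. Gapdh, often used to scale other genes, held 809, 973 and 693 CPM in WT and 889, 755 and 799 in KO with vehicle at 24 h. Dex libraries had 500.4, 571 and 456 CPM in WT and 625, 617 and 539 in KO, and the adjusted p was 2.37e-08. At 8 h its change was -0.082 and was not called. Pkm, pyruvate kinase, held 1269.8, 1311 and 1370.3 CPM with vehicle at 24 h (lowest, median and highest of 6) and 799, 912 and 1055 with Dex (adjusted p = 9.62e-12). Pgam1, which moves a phosphate within phosphoglycerate, rose by 0.20 at 2 h (adjusted p = 0.00739) and 0.17 at 8 h and was lower at 24 h, with -0.16 ± 0.053 (adjusted p = 0.013). Ldha, which turns pyruvate to lactate, held 669, 739.8 and 808 CPM with vehicle at 24 h and 488, 544 and 611 with Dex, a log2 change of -0.43 ± 0.062 (adjusted p = 5.07e-07). Ldhb, the heart-type subunit, fell only at 8 h among the 3 times, with -0.43 ± 0.10 (adjusted p = 0.000508), and its change at 24 h was 0.03. Reads of Gapdh, Pgam1, Ldha, Eno1, Pkm and Aldoa can be shared with near-identical pseudogenes, so their levels are uncertain to that extent.

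**Figure D4:**
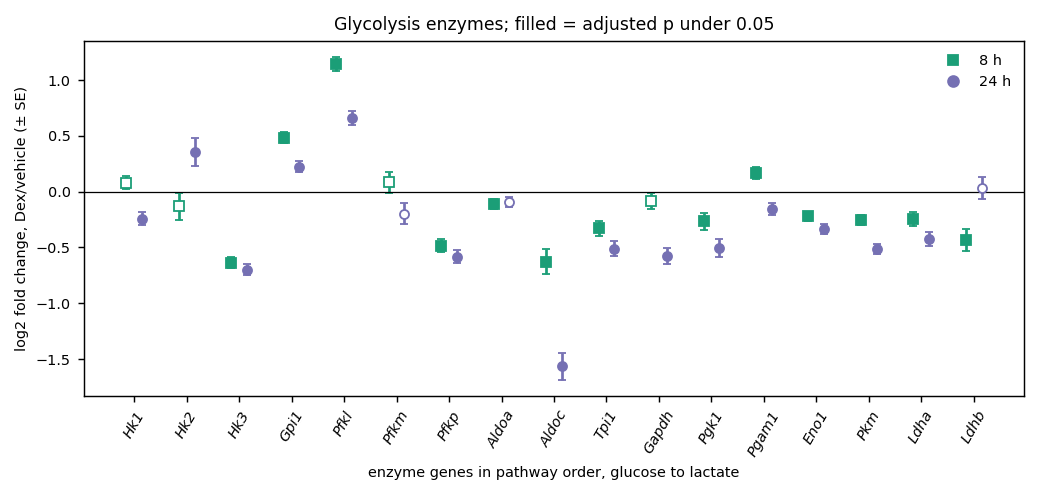
Log2 change with Dex against vehicle (vertical axis, error bars SE of the fit) for the glycolytic members in pathway order (horizontal axis), with squares for 8 h and circles for 24 h, filled where the adjusted p was under 0.05. Pfkl and Gpi1 stand above 0 at both times, and the enzymes from Tpi1 to Ldha lie below 0 at 24 h.

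Per length, untreated macrophages carried most transcript for the later steps of the pathway. The order was led by Pgam1 at 259 ± 16.4 CPM per kilobase, Pkm at 253 ± 12.7, Ldha at 249 ± 18.2 and Gapdh at 234 ± 24.2 (SD, n = 6), neighbours whose spreads overlap. Taldo1, a pentose phosphate enzyme, followed at 177 ± 16.1. Hk3 stood at 104 ± 4.12 and G6pdx at 100.5 ± 6.61, also within their spread, while Pfkm, at 1.87 ± 0.119, was near the bottom of the order. Aldoa has 2 gene models under its symbol, so it was given no length and is not in this order. The order rests on merged exon lengths, which were 1982 bases for Pgam1, 5001 for Pkm, 3310 for Ldha and 4133 for Gapdh. In CPM without length, untreated means were 1264 for Pkm, 969 for Gapdh, 825 for Ldha and 513 for Pgam1.

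The kinases that inactivate pyruvate dehydrogenase mostly rose. Of the 5 genes of this role, none was called at 2 h, 3 rose at 8 h, and 3 rose and 1 fell at 24 h. The shares called were 0%, 60% and 80%, against 14.5%, 52.2% and 53.6% of all genes. Pdk4 (chr6:5483351-5496309, minus strand) had the largest log2 change of any member at 24 h, but at very low counts. With vehicle at 24 h it held 0.248, 0.248 and 1.05 CPM in WT and 0.359, 0.601 and 0.302 in KO. With Dex it held 1.31, 3.69 and 2.09 CPM in WT and 1.18, 5.45 and 2.54 in KO, and the lowest Dex library was above the highest vehicle library. The log2 change was 2.57 ± 0.43 (adjusted p = 5.69e-06), or 5.94-fold. At 2 h vehicle gave 0.279, 0.153 and 0.0893 CPM in WT and 0.189, 0.162 and 0.179 in KO. Dex at 2 h gave 0.0892, 0.859 and 0.345 CPM in WT and 0.54, 0.599 and 0.287 in KO. Those groups overlapped, and the change of 1.32 ± 0.58 (adjusted p = 0.146) was not called. At 8 h vehicle gave 0.0947, 0.201 and 0.071 CPM in WT and 0.0764, 0.302 and 0.0976 in KO. Dex at 8 h gave 0.233, 0.426 and 0.235 CPM in WT and 0.0667, 0.415 and 0.601 in KO. The change of 1.196 ± 0.64 (adjusted p = 0.118) was not called, and a fit that took replicate numbers as blocks gave 1.18 (adjusted p = 0.0473).

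Pdk2 held 15.5, 16.7 and 19.3 CPM with vehicle at 8 h (lowest, median and highest of 6) and 26.5, 28.4 and 32.5 with Dex, with log2 changes of 0.78 ± 0.086 (adjusted p = 2.34e-09) at 8 h and 0.68 ± 0.087 (adjusted p = 4.18e-08) at 24 h. Pdk3 rose less, by 0.26 and 0.29. Pdk1, the kinase that HIF-1α is known to raise, went up at 8 h, with 0.32 ± 0.085 (adjusted p = 0.00174), and down at 24 h, with -0.49 ± 0.086 (adjusted p = 1.07e-05). The Pdk1 share of pyruvate dehydrogenase kinase transcript, counted per kilobase, was 33.3% ± 3.37 in WT with vehicle at 24 h and 19.7% ± 0.361 with Dex (SD, n = 3). In KO it was 33.01% ± 5.20 and 19.9% ± 0.71. Pdk4 stayed a small part, 2.91% ± 1.54 in WT and 3.84% ± 2.66 in KO with Dex at 24 h. Pdha1, the catalytic subunit they inactivate, was not called at any time.

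The hypoxia genes did not move as one group. Of 8, none rose and 3 fell at 2 h, and 3 rose and 3 fell at 8 h and again at 24 h. The shares called were 37.5%, 75% and 75%, against 14.5%, 52.2% and 53.6% of all genes. Vegfa (chr17:46016993-46032369, minus strand), the secreted growth factor for blood vessels, fell 2.22-fold at 2 h. Its vehicle libraries at 2 h held 61.4, 51.8 and 44.1 CPM in WT and 62.2, 52.5 and 42.5 in KO. Dex libraries at 2 h held 29.6, 25.8 and 22.2 CPM in WT and 23.6, 22.1 and 19.2 in KO, with no overlap. At 8 h vehicle gave 50.9, 58.8 and 52.6 CPM in WT and 56.1, 55.5 and 53.7 in KO. Dex at 8 h gave 30.96, 27.3 and 23.1 CPM in WT and 32.4, 23.4 and 18.7 in KO, again all below the vehicle values. At 24 h vehicle gave 50.1, 65.1 and 42.2 CPM in WT and 50.97, 80.8 and 37.1 in KO. Dex at 24 h gave 36.5, 36.1 and 26.3 CPM in WT and 27.5, 28.6 and 21.4 in KO, with the highest of these just under the lowest vehicle value. The log2 changes were -1.15 ± 0.15 (adjusted p = 1.7e-07), -1.07 ± 0.15 (adjusted p = 1.57e-07) and -0.90 ± 0.15 (adjusted p = 3.44e-06). Hif1a, the factor's own transcript, held 147, 176 and 162 CPM in WT and 156, 172 and 165 in KO with vehicle at 2 h. With Dex it held 141, 147 and 153 CPM in WT and 129.9, 151 and 153 in KO, and the ranges overlapped. The fall at 2 h, -0.16 ± 0.054 (adjusted p = 0.0369), was kept in 5 of 12 fits leaving out 1 library (-0.19 to -0.13), and changes at 8 and 24 h were -0.074 and 0.079, not called.

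Bnip3 and Bnip3l, mitochondrial receptors for mitophagy, both rose. Bnip3 held 47.6, 50.8 and 54.97 CPM with vehicle at 8 h and 84.3, 90.9 and 99.2 with Dex, with log2 changes of 0.84 ± 0.057 (adjusted p = 1.5e-14) at 8 h and 0.80 ± 0.057 (adjusted p = 6.5e-14) at 24 h. For Bnip3l the changes were 0.26 and 0.24. Mxi1, a partner of Max that opposes Myc, fell at 2 h with -0.25 ± 0.062 (adjusted p = 0.00321) and rose at 8 h with 0.66 ± 0.063 (adjusted p = 6.52e-11) and at 24 h with 0.41 ± 0.063 (adjusted p = 1.44e-06). P4ha1, a collagen prolyl hydroxylase subunit, fell at 8 h, with -0.49 ± 0.048 (adjusted p = 1.38e-10), and at 24 h, with -0.16. Ero1l, the oxidase of the endoplasmic reticulum (Ero1a in RefSeq), fell by 0.29 and 0.20. Egln1, the main hydroxylase of HIF-1α, was not called for Dex at any time. Ldha and Bnip3, whose windows held 5 HIF cores each, went in opposite directions at 24 h. A link between the motif and the Dex changes was not tested.

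Glycogen genes leaned upward at 8 h. Of 6 members, 4 rose and none fell at 8 h, and 2 rose and 1 fell at 24 h. The shares called were 66.7% and 50%, against 52.2% and 53.6% of all genes. Gbe1, the branching enzyme, held 35.5, 41.96 and 49.2 CPM with vehicle at 8 h (lowest, median and highest of 6) and 51.2, 62.3 and 67.02 with Dex, a log2 change of 0.53 ± 0.066 (adjusted p = 3.19e-08). Its 2 h change, 0.19 ± 0.066 (adjusted p = 0.0483), was kept in only 2 of 12 fits leaving out 1 library (0.16 to 0.23). Gys1, glycogen synthase, rose at 8 h with 0.31 ± 0.075 (adjusted p = 0.000652) and was at 0.057 at 24 h, not called. Pygl, the liver-type phosphorylase that releases glucose units, rose by 0.27 at 8 h and 0.37 at 24 h, and Pygb, the brain-type phosphorylase, fell at 24 h with -0.21 ± 0.074 (adjusted p = 0.0196). The Pygb call was kept in 9 of 12 fits (-0.25 to -0.16) and was lost without KO Dex 24 h replicate 2, WT Dex 24 h replicate 2 or WT vehicle 24 h replicate 1. Per kilobase, Pygl made up 46.00% ± 3.998 of the phosphorylase transcript in WT with vehicle and 57.5% ± 0.851 with Dex at 24 h. In KO the shares were 47.4% ± 3.48 and 56.2% ± 2.58. Pgm1, listed as a phosphoglucomutase, rose by 0.26 and 0.19; the symbols Pgm1 and Pgm2 have been swapped between mouse annotations, and the files do not say which naming they use.

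Few pentose phosphate enzymes were called without a replicate block. Of 6, none was called at 2 h, 2 fell at 8 h and 1 rose at 24 h. The shares called were 0%, 33.3% and 16.7%, against 14.5%, 52.2% and 53.6% of all genes. With replicate numbers as a block, edgeR also called Pgd (0.20, adjusted p = 0.000246), G6pdx (-0.12, adjusted p = 0.00392) and Tkt (-0.10, adjusted p = 0.0452) at 24 h. G6pdx, the enzyme that commits glucose 6-phosphate to the pathway, held 346, 342 and 408 CPM in WT and 327, 350.0 and 382 in KO with vehicle at 8 h. Under Dex it held 288, 292 and 340.0 CPM in WT and 303, 304 and 329 in KO, and the ranges overlapped. Its log2 change was -0.22 ± 0.058 (adjusted p = 0.00202), and at 24 h it was -0.12, not called without a replicate block. Tkt, transketolase, fell slightly at 8 h, with -0.13 ± 0.045 (adjusted p = 0.0145). Taldo1, transaldolase, rose at 24 h, with 0.23 ± 0.077 (adjusted p = 0.013), a call kept in 9 of 12 fits (0.18 to 0.26) and lost without WT Dex 24 h replicate 2, KO vehicle 24 h replicate 1 or WT vehicle 24 h replicate 1. Pgd, which yields NADPH at a later step, was at -0.20 at 8 h, not called, and at -0.20 with an adjusted p of 0.000329 once the replicate number was a block. Pgls and Rpia were not called at any time.

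The size of the Dex effect changed between times for many members. From 2 to 8 h it became higher for 9 and lower for 10 of 44 (43.2%, against 31% of all genes, 16.9% higher and 14.1% lower), and from 8 to 24 h higher for 5 and lower for 11 (36.4%, against 25.9%, 9.92% higher and 16% lower). These comparisons share the 8 h libraries. The Pfkfb3 effect grew by 1.04 ± 0.13 and then shrank, with -0.78 ± 0.13 (log2 ± SE, adjusted p = 1.72e-07 and 2.32e-05). For Pfkl the changes were 0.71 ± 0.088 and -0.49 ± 0.087 (adjusted p = 1.36e-07 and 6.09e-05). Gapdh, Hk1 and Pgam1 shifted downward from 8 to 24 h, with -0.49, -0.32 and -0.32, and Pdk1 shifted by -0.82 (adjusted p = 3.16e-06). Aldoc shifted downward at each step, with -0.55 and -0.94. Hk3, Pfkp, Vegfa and Bnip3 showed no called difference between 8 and 24 h, with adjusted p of 0.556, 0.402, 0.585 and 0.732.

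Other genes of the same pathways, taken from lists of genes that do not hold the members, were read in the same fit. Over all genes, 14.5%, 52.2% and 53.6% were called for Dex at 2, 8 and 24 h. Of all genes 27.5% rose and 24.7% fell at 8 h, and 26.8% moved in each direction at 24 h. The counts below are to be read beside these shares. Of 11 glucose and lactate transporters, 1 rose and 1 fell at 2 h, and 3 rose and 5 fell at 8 h and again at 24 h. Slc2a3, the glucose carrier GLUT3, rose at 8 h by 1.13 on the log2 scale (adjusted p = 5.41e-12), and Slc2a6 fell at 24 h with -1.03 (adjusted p = 1.19e-08). Of 6 measured among 8 further pentose phosphate genes, 5 rose and 1 fell at 8 h and 5 rose at 24 h, with a median of 0.59 at 8 h. H6pd, the glucose 6-phosphate dehydrogenase of the endoplasmic reticulum, changed by 0.73, 1.05 and 0.70 at 2, 8 and 24 h, and Prps1, which makes the ribose donor for nucleotides, by 0.25, 0.86 and 0.28, all called. Of 28 measured among 31 further hypoxia genes, 17 rose and 3 fell at 8 h (median 0.32). Ddit4, an inhibitor of mTORC1 and a known glucocorticoid target, held 1.33, 1.59 and 2.25 CPM with vehicle at 8 h (lowest, median and highest of 6) and 114, 127 and 143 with Dex. Hif3a, a HIF relative that can oppose HIF-1α, held 0 to 0.0764 CPM with vehicle and 3.48 to 6.17 with Dex at 8 h. Of 14 measured among 22 further glycolytic and gluconeogenic genes, 4 rose and 2 fell at 8 h and 5 rose and 3 fell at 24 h, Eno2, the neuronal enolase, falling with -1.27 at 24 h (adjusted p = 7.32e-10). Of 16 measured among 20 further glycogen genes, 3 rose and 4 fell at 8 h, with Ugp2, which makes UDP-glucose, at -0.71 (adjusted p = 1.45e-14). Of 30 pyruvate dehydrogenase and citric acid cycle genes, 6 rose and 8 fell at 8 h and 5 rose and 8 fell at 24 h. There Idh1, the cytosolic isocitrate dehydrogenase, rose at 24 h by 0.89 (adjusted p = 9.71e-14), and Pdp1, the phosphatase that reactivates pyruvate dehydrogenase, fell at 8 h with -1.01.

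Vehicle libraries also differed from untreated ones, which are a baseline at 0 h. There was no untreated group at 2, 8 or 24 h, so vehicle and time in culture cannot be told apart. These 3 comparisons share the 6 untreated libraries, and their vehicle libraries are the ones Dex was compared with. At 2 h 4 members rose and 1 fell, against 13.8% of all genes called (7.03% higher and 6.72% lower). At 8 h 14 rose and 2 fell, against 18.2% (8.49% and 9.66%), and at 24 h 14 rose and 5 fell, against 31% (15.6% and 15.4%). The summed macrophage markers ran from 22087 to 26894 CPM untreated and from 31779.6 to 40878 with vehicle at 24 h, without overlap, and their part in the vehicle results was not tested. The member medians were 0.01, 0.09 and 0.12, beside -0.01, 0.00 and 0.00 over all genes. Mxi1 rose most at 2 h. It held 31.6, 32.9 and 37.2 CPM in WT and 32.5, 36.7 and 36.2 in KO untreated. With vehicle at 2 h it held 77.1, 68.7 and 68.8 CPM in WT and 65.6, 70.6 and 70.1 in KO, all above the untreated range, and its changes were 1.03 ± 0.064 (adjusted p = 4.44e-13), 0.69 ± 0.064 (adjusted p = 2.69e-10) and 0.58 ± 0.064 (adjusted p = 7.87e-09) at 2, 8 and 24 h. Also at 2 h, Pfkp rose from a median of 161 to 197 CPM, with 0.30 ± 0.057 (adjusted p = 0.000373). Pfkfb3 at 2 h, with 0.32 ± 0.094 (adjusted p = 0.0199), kept its call in 6 of 12 fits leaving out 1 library, over a range of 0.26 to 0.38. Pfkfb4, with 39.1, 32.5 and 39.9 CPM in WT and 35.3, 37.5 and 39.4 in KO untreated and a change of -0.31 ± 0.10 (adjusted p = 0.0361), kept it in 3 of 12 (-0.36 to -0.29). Pgam1 kept it in 4 of 12 (0.12 to 0.20).

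At 8 h Pgd held 412, 421 and 525 CPM in WT and 367, 451 and 498 in KO with vehicle. Untreated libraries held 262, 288 and 322 CPM in WT and 255, 304 and 294 in KO, and the change was 0.63 ± 0.092 (adjusted p = 3.35e-06). Pfkl changed with vehicle at 8 h by 0.45 ± 0.063 (adjusted p = 1.89e-06) and at 24 h by 0.52 ± 0.063 (adjusted p = 6.18e-08), from untreated values of 36.6, 34.4 and 38.97 CPM in WT and 35.5, 38.3 and 43.8 in KO. Ldhb rose most at 24 h. Its untreated libraries held 6.92, 8.13 and 9.74 CPM in WT and 8.89, 9.54 and 9.05 in KO. With vehicle at 24 h they held 13.8, 15.9 and 16.6 CPM in WT and 14.1, 20.01 and 16.3 in KO, with no overlap and a change of 0.90 ± 0.10 (adjusted p = 1.28e-08). Hk3 and Gapdh fell with vehicle, Hk3 with -0.20 ± 0.049 (adjusted p = 0.00312) at 8 h and -0.36 ± 0.049 (adjusted p = 6.01e-07) at 24 h from untreated values of 402, 391 and 358 CPM in WT and 391, 377 and 387 in KO. For Gapdh the changes were -0.27 ± 0.071 (adjusted p = 0.00695) and -0.24 ± 0.071 (adjusted p = 0.00917), the latter lost without KO untreated replicate 1 (-0.31 to -0.18 over the fits). Pgk1 at 24 h, -0.20 ± 0.078 (adjusted p = 0.0458), was kept in 6 of 12 fits (-0.24 to -0.12). Egln1 rose at 24 h with 0.80 ± 0.29 (adjusted p = 0.0329), but its vehicle libraries held 36.8, 11.99 and 36.3 CPM in WT and 10.1, 9.37 and 10.3 in KO. That rise rests on WT vehicle 24 h replicates 1 and 3, and the call was kept in 6 of 12 fits (0.67 to 0.99). Without KO vehicle 24 h replicate 2, 15 members rose and 2 fell at 24 h, beside 3023 of 11160 genes called (3464 with it).

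No member was called between KO and WT in the main fit, which had no replicate block. That held for the mean over groups without Dex (0.224% of all genes called, 0.116% higher and 0.108% lower in KO), for the mean over groups with Dex (0.0538%, 0.0448% higher and 0.00896% lower), and for the difference of the Dex effect between genotypes at 2, 8 and 24 h (0% at each) by edgeR's quasi-likelihood test. At an unadjusted p under 0.05 these comparisons held 5, 5, 3, 0 and 6 of the 44 members, beside 933, 852, 986, 133 and 564 of the 11160 genes. DESeq2 called 1 member without Dex, Aldoc, and none elsewhere. With replicate numbers as a block, edgeR called Aldoc too without Dex (-0.29, adjusted p = 0.0416), beside 111 of 11160 genes. Aldoc held 19.2, 15.6 and 21.8 CPM in WT and 16.6, 13.1 and 12.2 in KO untreated. With vehicle at 2 h it held 18.4, 17.3 and 20.9 CPM in WT and 12.4, 14.2 and 13.8 in KO, so that all KO libraries lay below all WT ones there. At 8 and 24 h with vehicle the genotypes overlapped. Its difference, KO against WT without Dex, was -0.30 ± 0.078 (adjusted p = 0.106) by edgeR without a block, and with Dex it was -0.26 ± 0.10 (adjusted p = 0.467). Rpia, the isomerase that makes ribose phosphate, was at -0.41 ± 0.12 (adjusted p = 0.216) without Dex. The 24 h Dex effect on Pfkfb3 differed by -0.50 ± 0.19, KO minus WT (log2 ± SE, adjusted p = 0.89 in edgeR). For Vegfa at 24 h the effect was -0.67 in WT and -1.12 in KO, and for Hk3 it was -0.74 in WT and -0.66 in KO. For the Egln1 effect at 24 h, 1.64 higher in KO (adjusted p = 0.89), the 2 high WT vehicle libraries named above enter.

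**Figure D5:**
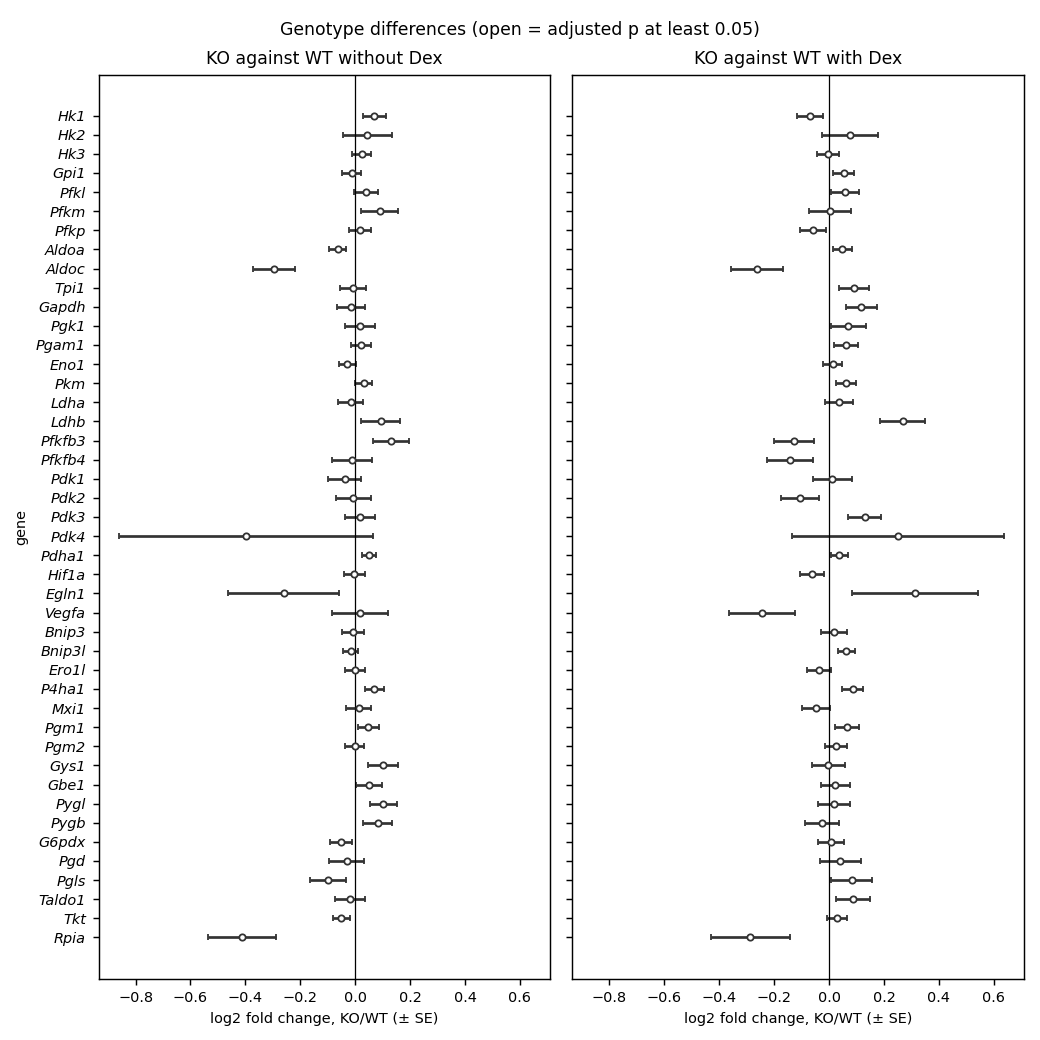
Log2 difference, KO against WT, of each of the 44 members (error bars SE of the fit), for the mean over groups without Dex and the mean over groups with Dex. All are drawn open because no adjusted p was under 0.05 in the fit without a replicate block. Most points lie near 0, and Aldoc and Rpia are among the lowest without Dex.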

How the data were processed

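The authors deposited 1 table of expected counts per gene, estimated counts that need not be whole, for 11160 genes in 42 libraries. Of its 468720 values, 69.5% lay within 0.01 of a whole number. The submitters' processing notes name fastp, HISAT2, Salmon and the build GRCm38, with no roles or versions, and the sources used here give no annotation, strand setting or rule by which these genes were selected. Without strand, reads of a gene and an overlapping antisense gene cannot be told apart. Per the labels, libraries were made from mRNA with a SMART-Seq kit.

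Counts were rounded and fitted in edgeR 4.0.16 (R 4.3.3, limma 3.58.1) by the quasi-likelihood test, with 1 mean for each of 14 groups, TMM scaling (0.95 to 1.04) and filterByExpr, which removed no gene. P-values were adjusted by Benjamini-Hochberg over all genes, and a call means an adjusted p under 0.05. Dex effects average WT and KO. CPM per kilobase used exon lengths merged from GENCODE vM21. No 2 replicates were the same library (chi-square per degree of freedom at least 7.09).

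The genes and lists were chosen with earlier results of these data known. Members described library by library were those with the largest called changes (at most 3 in each direction, at an absolute log2 change of at least 1 for Dex, filled up to 3), the same for vehicle, and Hk1, Hk2, Hk3, Pfkfb3, Pdk4, Hif1a, Vegfa and G6pdx. On simulated counts for Dex at 8 h over 11160 genes, 60%, 84%, 94% and 100% of genes changed 1.3, 1.5, 2 and 3-fold were recovered. The simulation changed only 50 genes at each fold and held no replicate effect, while 5829 genes were called in the data. Its recovery rates may therefore not hold for the calls reported here.

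Also tried were DESeq2 1.42.0, scaling by median ratios, keeping every gene or those with a mean CPM of 5 or more, fitting replicate numbers as blocks, fitting the compared libraries alone, and leaving out each library. Same-numbered libraries deviated together for Dex against vehicle at 8 h, where every correlation of their deviations was over 0.1 (0.118 to 0.489). The labels do not say what a number shares, so the pairing there comes from the data. The neutrophil and stromal marker sums followed the replicate number in every group, and the main fit took no account of it.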

Additional observations from a re-analysis of the deposited data

Results flagged for a closer look

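For 19 members the Dex effect at 8 h differed from that at 2 h by the test of the difference itself (edgeR, adjusted p under 0.05), and for 16 the effect at 24 h differed from that at 8 h. In log2 units, the effect was higher at 8 h than at 2 h by the following: Pfkfb3 1.04, Mxi1 0.91, Bnip3 0.76, Pdk2 0.73, Pfkl 0.71, Gpi1 0.43, Gbe1 0.33, Pdk3 0.28 and Bnip3l 0.24. It was lower at 8 h for these genes: Hk3 -0.60, Aldoc -0.55, Pfkp -0.47, P4ha1 -0.46, Ldhb -0.37, Pgk1 -0.29, G6pdx -0.27, Tpi1 -0.26, Pkm -0.22 and Eno1 -0.21. From 8 to 24 h it moved up for Hk2 0.49, Ldhb 0.46, Pgd 0.40, P4ha1 0.34 and Taldo1 0.33. It moved down over that step for Aldoc -0.94, Pdk1 -0.82, Pfkfb3 -0.78, Gapdh -0.49, Pfkl -0.49, Gbe1 -0.42, Pgam1 -0.32, Hk1 -0.32, Pkm -0.26, Gpi1 -0.26 and Mxi1 -0.25. Leaving out 1 of the 24 libraries compared, the 8 h against 2 h calls were kept in 16 fits for Tpi1, 13 for Pgk1, 11 for Ldhb and 5 for Pdk3. The 24 h against 8 h calls were kept in 14 fits for Hk2 and 12 for Mxi1, Pgd lost its call only without WT vehicle 8 h replicate 3 and Taldo1 only without WT vehicle 24 h replicate 1. Both steps use the 8 h libraries, so a high or low 8 h value enters each.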

How the results depend on the processing

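In 12204 refitted values of single members over the alternatives, no value called in either fit changed sign. Among these 12204 values, 478 with a library left out and 30 under other settings did change sign, and each was called in neither fit. The number of members called for Dex was 6 to 8 at 2 h, 29 to 31 at 8 h and 28 to 34 at 24 h under the other settings, and 5 to 7, 28 to 30 and 26 to 32 when each library was left out in turn. Of the calls, 5 of 7, 28 of 29 and 26 of 29 were kept in every fit. KO against WT without Dex went from 0 to 1 member, Aldoc, lower in KO by a log2 difference of -0.29, under DESeq2 (adjusted p = 0.0351) and in edgeR with replicate numbers fitted as a block (adjusted p = 0.0416). With vehicle at 2 h, 3 members were called from the compared libraries only, and 2 to 4 when each library was left out, with 3 without WT untreated replicate 1 or 3, KO untreated replicate 2 or 3 or WT vehicle 2 h replicate 2, and 2 without KO vehicle 2 h replicate 2 or 3 or WT vehicle 2 h replicate 3. Calls for the change of the Dex effect ranged from 16 to 19 at 8 h against 2 h and from 14 to 17 at 24 h against 8 h, and those for vehicle from 12 to 17 at 8 h and 16 to 20 at 24 h, over the fits leaving out a library. The replicate number as a block gave 8, 31 and 34 members for Dex at 2, 8 and 24 h, and 6, 18 and 24 for vehicle. Of all 11160 genes it called 1914, 6314 and 6443 for Dex, against 1623, 5829 and 5984 without a block. For vehicle it called 1892, 2654 and 4061, against 1535, 2026 and 3464, so calls rose over all genes too. That fit also called Pfkfb4 for Dex at 2 h (0.23, adjusted p = 0.0226 in edgeR) and 24 h (-0.23, adjusted p = 0.00895), and at 24 h Pgd (0.20, adjusted p = 0.000246), G6pdx (-0.12, adjusted p = 0.00392), Aldoa (adjusted p = 0.0421) and Tkt (adjusted p = 0.0452). Outside the 8 h Dex comparison the lowest correlation between same-numbered libraries of a comparison was -0.229 to 0.0618. Not every pair was over 0.1, and the main fit did not take the numbers to pair the libraries. Yet in 12 of all 19 pairs of groups checked the 3 correlations were over 0.1, such as WT Dex and vehicle at 24 h (0.29 to 0.508). The neutrophil and stromal marker sums also followed the number in every group, so the libraries of a number were alike in part. Low counts limit Pdk4 most, and the median SE for Dex at 2 h was 0.0831 on the log2 scale.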

Other observations

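Egln1, the HIF-1α hydroxylase, split within a group. Its CPM with vehicle at 24 h was 36.8, 11.99 and 36.3 in WT and 10.1, 9.37 and 10.3 in KO, and with Dex at 24 h it was 13.4, 15.8 and 17.3 in WT and 16.7, 12.1 and 21.9 in KO. Untreated libraries ran from 5.58 to 13.98. Vegfa with vehicle at 24 h was highest in KO replicate 2, at 80.8 CPM, the library in which Fkbp5 was also high.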
